A study of Mus musculus with 16 samples.

Results

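The 9 genes described here encode core parts of necroptosis and pyroptosis, 2 forms of cell death in which the cell membrane is breached. They are Ripk1, Ripk3, Mlkl, Casp8, Nlrp3, Pycard, Casp1, Casp4 and Gsdmd, taken by symbol from the 23284 gene symbols of the count table. All 9 were found, each in 1 row. Expression was measured by poly-A RNA sequencing of whole lumbar spinal cord, the level that holds the motor neurons of the hindlimb, from mice aged 150 days. The 4 groups of 4 animals each were Atg7 cKO mice carrying SOD1G93A (cKO_SOD1), Atg7 cWT mice carrying SOD1G93A (cWT_SOD1), Atg7 cKO mice without it (cKO), and Atg7 cWT mice without it (cWT). SOD1G93A is a mutant human SOD1 transgene that gives mice a motor neuron disease, Atg7 encodes an enzyme required for autophagosome formation, and cKO and cWT are read here as conditional knockout and its wild-type counterpart. The series title places the loss of autophagy in motor neurons, while the RNA comes from all cells of the cord. The labels name neither the Cre driver nor any treatment.

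In necroptosis, the kinase Ripk1 is recruited to tumour necrosis factor receptors and can engage the kinase Ripk3, which phosphorylates Mlkl so that Mlkl permeabilises the plasma membrane. Casp8, the protease that starts death-receptor apoptosis, cleaves Ripk1 and Ripk3 and so restrains this route. In pyroptosis, a sensor such as Nlrp3 assembles with the adaptor Pycard (ASC) into an inflammasome that activates Casp1, which cleaves the pore-forming protein Gsdmd and matures interleukin-1 beta and interleukin-18. Casp4, the mouse caspase-11, responds to intracellular lipopolysaccharide and also cleaves Gsdmd. In the nervous system the inflammasome is best known from microglia, the resident macrophages of the cord.

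In the deposited tables, whose positions are in mm9, Casp1 (chr9:5298517-5307281) and Casp4 (chr9:5308860-5336791) lie next to each other on chromosome 9 with 1578 bases between them, and Casp12 follows 8684 bases after Casp4. The others lie on 7 different chromosomes, namely Casp8 at chr1:58852218-58904347, Pycard at chr7:135134887-135137381, Mlkl at chr8:113835700-113861803, Nlrp3 at chr11:59356188-59380458, Ripk1 at chr13:34094743-34127039, Ripk3 at chr14:56403832-56407694 and Gsdmd at chr15:75692769-75697834. No other gene of the tables overlaps any of the 9. RefSeq promoter windows of the 250 bases before a transcription start, in build GRCm38.p6, were at hand for 8 of the 9 genes, in 11 windows. The 4 printed here are those of Casp4, the gene with the largest difference between groups, and of Pycard, Nlrp3 and Ripk1, which hold matches to motifs bound by factors of the immune response. Capitals mark the matches, which are to NF-kappaB in Casp4, to the PU.1 core GAGGAAG on either strand in Pycard, Nlrp3 and Ripk1, and to the gamma-activated site TTCNNNGAA, bound by STAT factors, in Ripk1.
Casp4, start 1, chr9:5308599-5308848, plus strand: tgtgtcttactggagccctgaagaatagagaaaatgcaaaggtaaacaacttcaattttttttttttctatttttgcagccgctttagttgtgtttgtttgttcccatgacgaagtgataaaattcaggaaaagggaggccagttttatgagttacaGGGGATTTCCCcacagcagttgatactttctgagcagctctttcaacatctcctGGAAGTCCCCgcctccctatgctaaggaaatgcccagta
Pycard, chr7:127993868-127994117, minus strand: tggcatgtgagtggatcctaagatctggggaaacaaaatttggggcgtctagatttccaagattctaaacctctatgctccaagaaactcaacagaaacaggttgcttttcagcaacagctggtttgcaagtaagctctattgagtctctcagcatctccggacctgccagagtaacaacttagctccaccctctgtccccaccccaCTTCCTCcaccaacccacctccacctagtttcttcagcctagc
Nlrp3, start 2, chr11:59542436-59542685, plus strand: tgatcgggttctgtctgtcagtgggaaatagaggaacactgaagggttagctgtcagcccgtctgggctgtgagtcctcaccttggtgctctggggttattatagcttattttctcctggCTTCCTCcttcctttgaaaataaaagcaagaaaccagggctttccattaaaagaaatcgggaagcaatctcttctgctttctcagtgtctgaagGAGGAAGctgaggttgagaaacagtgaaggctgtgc
Ripk1, start 2, chr13:34002624-34002873, plus strand: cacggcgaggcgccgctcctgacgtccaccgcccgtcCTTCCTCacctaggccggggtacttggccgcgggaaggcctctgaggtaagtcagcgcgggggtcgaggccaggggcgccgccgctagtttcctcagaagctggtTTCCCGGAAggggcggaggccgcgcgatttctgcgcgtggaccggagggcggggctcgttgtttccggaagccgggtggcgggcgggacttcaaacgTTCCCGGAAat
PU.1 is a transcription factor of myeloid cells. Its core was found in 3 of the 11 windows, each of another gene, against 10.6% of all 32851 RefSeq windows of this length. An NF-kappaB match was found in 3 of the 11 windows, namely both of Casp4, which overlap each other, and that of Nlrp3 start 1, against 7.25% of all windows, and 2 of the 3 matches in the printed Casp4 window share bases. The gamma-activated site was found in 1 of the 11 windows, in Ripk1, against 7.02% of all windows. No window of the 8 genes held TATAAA (12.4% of all windows). All motifs were searched on both strands, and a match says only that these letters are present.

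Library totals ran from 14989026 to 20892530 counts, and 15426 genes had enough counts to be tested. Each group held 2 males and 2 females by the counts of Xist and Y-linked genes. Atg7 itself averaged 27.2 ± 4.50 CPM (counts scaled to a common library total by TMM) in cKO_SOD1, 24.1 ± 4.26 in cWT_SOD1, 28.0 ± 1.06 in cKO and 31.4 ± 2.51 in cWT cords (SD, n = 4 each). Counts over the whole gene and all cells of the cord therefore do not check the genotype label. All 9 genes passed the filter on low counts, which asked for 0.544 CPM in at least 4 libraries. Ripk3 passed only through the cWT_SOD1 libraries, where all 4 were over that level, with 1 cKO_SOD1 library besides. Counts of a single gene in a single library ran from 1, for Casp4 and Mlkl in cWT replicate 2, to 518, for Ripk1 in cWT_SOD1 replicate 3.

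On the length-scaled FPKM of the authors, in which genes can be set against each other, Casp1 was highest in every group. In cKO_SOD1 cords Casp1 averaged 3.58 ± 0.529 FPKM (SD, n = 4, as for all FPKM given here), followed by Ripk1, Pycard, Casp8 and Gsdmd between 2.71 and 2.21, then Nlrp3, Casp4, Mlkl and Ripk3 between 0.765 and 0.243. In cWT_SOD1 cords the order was Casp1 (9.01 ± 1.01 FPKM), Pycard (8.80 ± 1.87), Gsdmd, Ripk1, Casp8, Casp4 (3.87 ± 0.411), Nlrp3 (1.66 ± 0.291), Ripk3 (0.668 ± 0.172) and Mlkl (0.396 ± 0.151). The inflammasome adaptor thus stood beside Casp1 there, while the 2 genes at the end of the necroptosis route stayed lowest. In cKO cords Casp1 averaged 2.50 ± 0.525 FPKM and Pycard 1.26 ± 0.393, the fifth in order, with Casp4, Nlrp3, Ripk3 and Mlkl at 0.468 or less. In cWT cords Casp1 averaged 2.18 ± 0.438 FPKM, Pycard 1.13 ± 0.170, and Nlrp3, Casp4, Mlkl and Ripk3 0.315 or less. Most neighbours in these orders overlapped between libraries. Ranges were separate for 2 of 8 neighbouring pairs in cKO_SOD1 (Casp1 above Ripk1 and Gsdmd above Nlrp3), 3 in cWT_SOD1 (Casp8 above Casp4, Casp4 above Nlrp3, Nlrp3 above Ripk3), and 1 each in cKO and cWT, below Pycard.

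**Figure D1:**
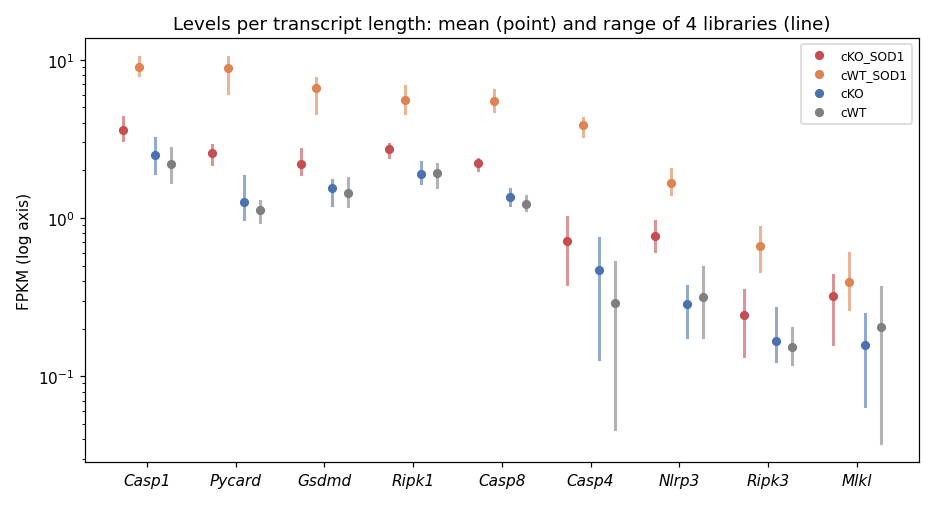
Level of each gene in FPKM, on a log axis, for the 4 libraries of cKO_SOD1, cWT_SOD1, cKO and cWT. Casp1 is the highest of the 9 by mean in every group, at 3.58, 9.01, 2.50 and 2.18 FPKM in that order, and Ripk3 and Mlkl are the lowest in cKO_SOD1, cWT_SOD1, cKO and cWT.

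All 9 genes were higher in cWT_SOD1 than in cWT cords. The increases, from the edgeR quasi-likelihood test with Benjamini-Hochberg adjustment over all genes tested, were largest for Casp4 (12-fold), Pycard (7.41-fold), Ripk3 (5.58-fold) and Nlrp3 (5.13-fold), and smallest for Ripk1 (2.72-fold) and Mlkl (2.12-fold). The median log2 fold change over the 9 was 2.18, against 0.0088 over all genes tested. Without Ripk3, which passed the filter on low counts through the cWT_SOD1 libraries, 8 of 8 were higher with a median of 2.16. This stands on a broad background, since 66.3% of all genes tested changed in this comparison, 33.2% higher and 33.1% lower. All 4 cWT_SOD1 libraries lay above all 4 cWT libraries for 8 of the 9 genes, where 27.6% of all genes lay wholly above and 28.9% wholly below, and the ranges overlapped for Mlkl. The cord is a mixture, so more cells of a type and more RNA per cell cannot be told apart in any of these values.

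**Figure D2:**
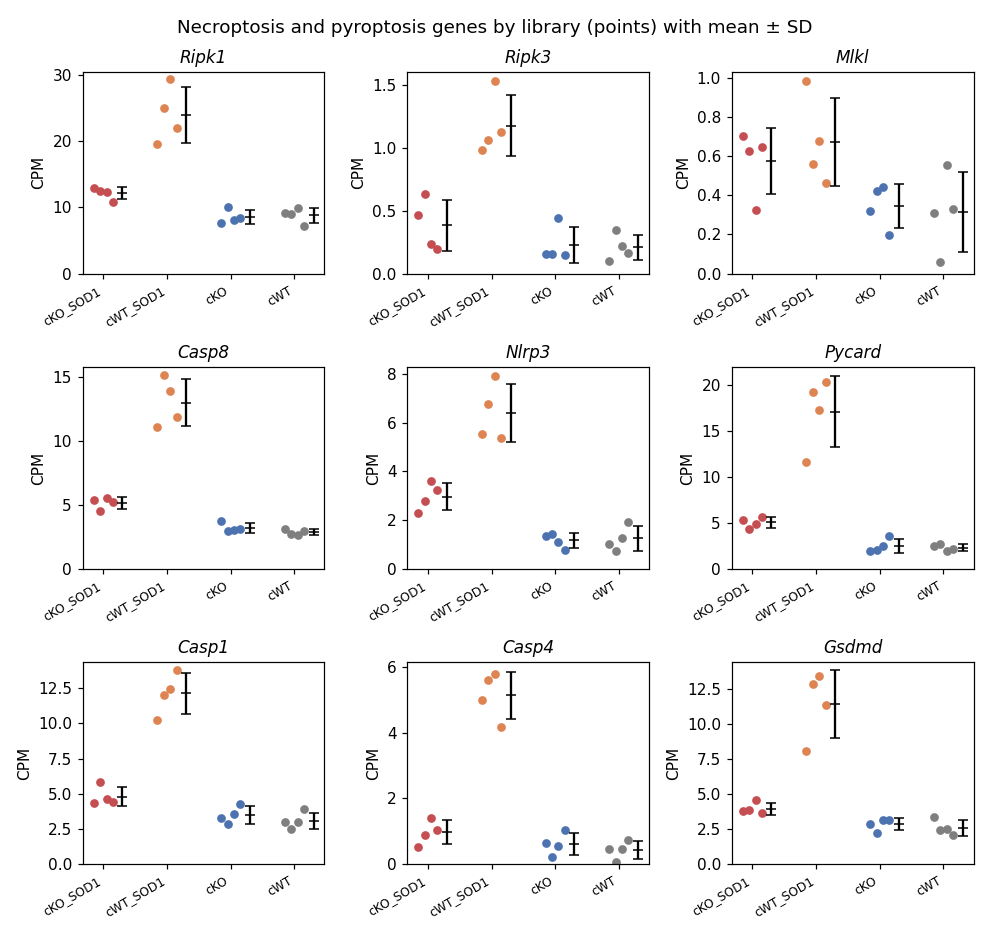
CPM of each of the 9 genes in every library, with the mean and SD of each group of 4, in the order cKO_SOD1, cWT_SOD1, cKO and cWT. The cWT_SOD1 libraries stand above all others for 8 genes, as for Pycard at 11.6 to 20.3 CPM, and overlap cKO_SOD1 and cWT for Mlkl at 0.464 to 0.984 CPM. Against cWT alone, 27.6% of all genes tested lay wholly above, and the share that lay above all other libraries was not counted.

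Among the genes of the necroptosis route, Ripk1, the kinase at the top, was counted at 12.9, 12.4, 12.3 and 10.8 CPM in cKO_SOD1 cords, 19.6, 25, 29.3 and 21.9 CPM in cWT_SOD1 cords, 7.59, 10.1, 8.04 and 8.43 CPM in cKO cords, and 9.22, 8.96, 9.89 and 7.20 CPM in cWT cords. All cWT_SOD1 libraries were above the other 12, and the cKO_SOD1 libraries were above those of both groups without the transgene. Ripk1 rose in cWT_SOD1 against cWT (log2 fold change 1.44, SE 0.12, adjusted p = 2.27e-08). Casp8, which restrains the route, had 5.39, 4.50, 5.50 and 5.22 CPM in cKO_SOD1 cords, 11.1, 15.1, 13.9 and 11.9 CPM in cWT_SOD1 cords, 3.72, 2.92, 2.99 and 3.12 CPM in cKO cords, and 3.12, 2.68, 2.67 and 2.99 CPM in cWT cords. The groups followed the same arrangement, with cWT_SOD1 above cKO_SOD1 and cKO_SOD1 above both others, with no overlap. Casp8 rose in cWT_SOD1 against cWT with the smallest adjusted p of the 9 (log2 fold change 2.18, SE 0.12, adjusted p = 1.42e-10).

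Ripk3, the kinase that acts on Mlkl, was scarce, with 8, 12, 5 and 4 counts in cKO_SOD1 libraries, 16, 19, 27 and 17 in cWT_SOD1, 3, 3, 8 and 3 in cKO and 2, 6, 4 and 3 in cWT. In CPM every cWT_SOD1 library was above all of the other groups, which overlapped each other. Ripk3 was at 1.18 ± 0.243 CPM in cWT_SOD1 cords and 0.208 ± 0.102 CPM in cWT cords (SD, n = 4 each, log2 fold change 2.48, SE 0.40, adjusted p = 3.15e-05). Since Ripk3 passed the filter on low counts only through cWT_SOD1, where it is high, its differences from that group are given as a description. With no filter the log2 fold change was 2.47 (adjusted p = 3.56e-05). Mlkl, the effector of the route, had 12, 12, 7 and 13 counts in cKO_SOD1, 16, 10, 12 and 7 in cWT_SOD1, 6, 8, 8 and 4 in cKO and 6, 1, 10 and 6 in cWT libraries. In CPM the cWT_SOD1 libraries overlapped those of cKO_SOD1 and cWT and lay just above those of cKO. Mlkl passed the test in cWT_SOD1 against cWT (log2 fold change 1.08, SE 0.42, adjusted p = 0.0321). The call was lost when any of cWT replicates 1, 2 or 4 or cWT_SOD1 replicates 1 or 3 was left out (adjusted p from 0.0522 to 0.106). On log2 FPKM with a pseudocount of 0.1 it was also lost (adjusted p = 0.0647, limma). Of the 15 alternatives that tested Mlkl here, 8 called it.

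Of the inflammasome genes, the sensor Nlrp3 had 2.28, 2.78, 3.59 and 3.23 CPM in cKO_SOD1 cords, 5.54, 6.76, 7.93 and 5.37 CPM in cWT_SOD1 cords, 1.33, 1.43, 1.11 and 0.780 CPM in cKO cords, and 1.02, 0.742, 1.28 and 1.94 CPM in cWT cords. Both transgenic groups lay above both others, and cWT_SOD1 above cKO_SOD1, without overlap. Nlrp3 rose in cWT_SOD1 against cWT (log2 fold change 2.36, SE 0.24, adjusted p = 1.25e-07). The adaptor Pycard had 5.27, 4.35, 4.84 and 5.67 CPM in cKO_SOD1 cords, 11.6, 19.2, 17.2 and 20.3 CPM in cWT_SOD1 cords, 1.96, 2.02, 2.44 and 3.56 CPM in cKO cords, and 2.51, 2.68, 1.89 and 2.10 CPM in cWT cords. Its libraries fell into the same 3 levels, and replicate 1 of cWT_SOD1, the lowest of its group also for Ripk1, Ripk3, Casp1, Casp8 and Gsdmd, was still above every cKO_SOD1 library. Pycard rose in cWT_SOD1 against cWT (log2 fold change 2.89, SE 0.20, adjusted p = 1.45e-09).

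Casp1, the caspase of the inflammasome, had 4.33, 5.81, 4.61 and 4.43 CPM in cKO_SOD1 cords, 10.3, 12, 12.5 and 13.8 CPM in cWT_SOD1 cords, 3.24, 2.81, 3.55 and 4.29 CPM in cKO cords, and 2.97, 2.51, 3.0 and 3.88 CPM in cWT cords. The cWT_SOD1 libraries were at least 10.3 CPM and no other library exceeded 5.81. Casp1 rose in cWT_SOD1 against cWT (log2 fold change 1.97, SE 0.15, adjusted p = 5.12e-09). Its neighbour Casp4 was counted 9, 17, 30 and 21 times in cKO_SOD1, 81, 100, 102 and 63 times in cWT_SOD1, 12, 4, 10 and 21 times in cKO and 9, 1, 8 and 13 times in cWT libraries. Casp4 was at 5.13 ± 0.721 CPM in cWT_SOD1 cords and 0.421 ± 0.273 CPM in cWT cords (SD, n = 4 each), the largest increase of the 9 (log2 fold change 3.58, SE 0.37, adjusted p = 1.87e-07). Only the cWT_SOD1 group stood apart for Casp4, and the other 3 groups overlapped. Gsdmd, the pore that Casp1 and Casp4 open by cleavage, had 3.75, 3.82, 4.57 and 3.63 CPM in cKO_SOD1 cords, 8.06, 12.9, 13.4 and 11.3 CPM in cWT_SOD1 cords, 2.87, 2.23, 3.10 and 3.12 CPM in cKO cords, and 3.33, 2.40, 2.50 and 2.05 CPM in cWT cords. Its arrangement was that of Casp1, with cWT_SOD1 far above the rest and cKO_SOD1 just above the cKO and cWT ranges. Gsdmd rose in cWT_SOD1 against cWT (log2 fold change 2.14, SE 0.17, adjusted p = 9.76e-09).

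Under the cKO genotype the transgene was accompanied by smaller differences. Of the 9 genes, 4 rose in cKO_SOD1 against cKO and 5 did not pass the test, where 7.28% of all genes tested changed, 4.80% higher and 2.48% lower. The 4 were Nlrp3 (2.57-fold, log2 fold change 1.36, SE 0.25, adjusted p = 0.00204), Pycard (2.0-fold, log2 fold change 1.0, SE 0.20, adjusted p = 0.00474), Casp8 (1.62-fold, log2 fold change 0.69, SE 0.12, adjusted p = 0.00180) and Ripk1 (1.42-fold, log2 fold change 0.50, SE 0.13, adjusted p = 0.0214). Among the 5 not called, Casp4 (log2 fold change 0.67), Ripk3 (0.73) and Mlkl (0.72) had larger values than Ripk1. Called and uncalled genes were not tested against each other. The call of Ripk1 was lost without cKO replicate 1 or 3 or cKO_SOD1 replicate 1, 2 or 3, with adjusted p from 0.0542 to 0.0778. Casp1 (log2 fold change 0.46, adjusted p = 0.0840) and Gsdmd (0.48, adjusted p = 0.129) did not pass although all 4 cKO_SOD1 libraries lay above all 4 cKO libraries. Casp1 passed without cKO replicate 4 (adjusted p = 0.0383), and Gsdmd passed in a fit of these 8 libraries alone (adjusted p = 0.0394). The scarce genes gave wide intervals, with 95% limits of -0.20 to 1.54 for Casp4, -0.26 to 1.72 for Ripk3 and -0.15 to 1.60 for Mlkl on the log2 scale. Groups did not overlap for 6 of the 9, where 9.91% of all genes had cKO_SOD1 wholly above cKO.

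**Figure D3:**
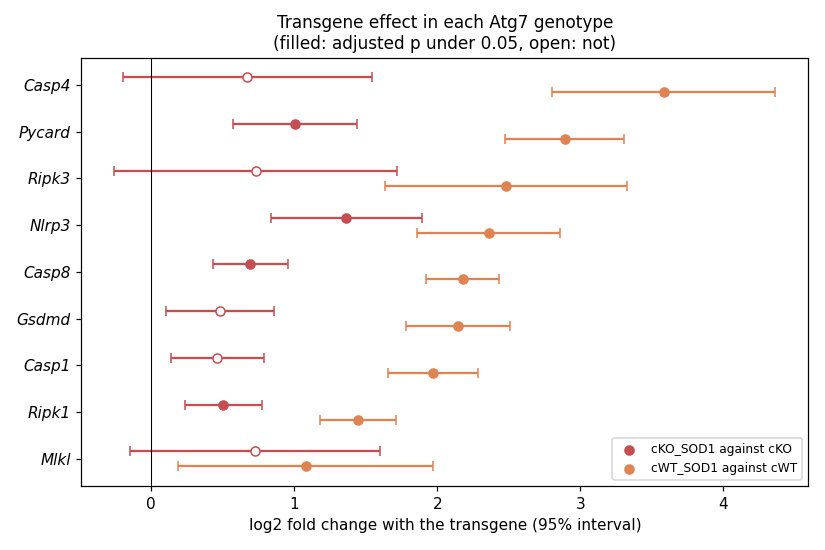
Log2 fold change with its 95% interval for each gene, in cKO_SOD1 against cKO (upper point of each pair) and in cWT_SOD1 against cWT (lower point), filled where the adjusted p was under 0.05. The cWT_SOD1 points run from 1.08 (Mlkl) to 3.58 (Casp4) and are all filled, and the cKO_SOD1 points run from 0.46 (Casp1) to 1.36 (Nlrp3), with 4 filled.

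Without the transgene, the Atg7 genotype made no difference that passed the test in any of the 9 genes. Log2 fold changes in cKO against cWT ran from -0.11 for Nlrp3 to 0.53 for Casp4, with adjusted p = 0.9995 for all. None passed an unadjusted p of 0.05 either, nor did DESeq2 call any. Over all genes tested, 0.0259% changed in this comparison, 0.00648% higher and 0.0194% lower. The precision differed widely, with 95% limits of -0.13 to 0.43 for Casp8 and -0.50 to 1.55 for Casp4. The 2 groups overlapped for all 9 genes, where 1.55% of all genes had cKO wholly above cWT and 1.93% wholly below.

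With the transgene in both groups, 8 of the 9 genes were lower in cKO_SOD1 than in cWT_SOD1 cords, by factors from 1.98 to 5.21. In this comparison 58.2% of all genes tested changed, 29.1% in each direction. Casp4 was at 0.965 ± 0.361 CPM in cKO_SOD1 and 5.13 ± 0.721 CPM in cWT_SOD1 cords (log2 fold change -2.38, SE 0.32, adjusted p = 6.51e-06). Pycard was 3.39-fold lower (log2 fold change -1.76, SE 0.18, adjusted p = 3.33e-07), and Gsdmd 2.89-fold lower (log2 fold change -1.53, SE 0.16, adjusted p = 5.78e-07). The inflammasome caspase Casp1 and the death-receptor caspase Casp8 were lower by close factors, 2.53-fold (log2 fold change -1.34) and 2.52-fold (-1.33). Ripk3 was 3.11-fold lower (log2 fold change -1.64, SE 0.35, adjusted p = 0.000710), Nlrp3 2.15-fold lower (adjusted p = 0.000222) and Ripk1 1.98-fold lower (adjusted p = 2.47e-06). Mlkl did not pass (log2 fold change -0.24, SE 0.37, adjusted p = 0.609, 95% limits -1.03 to 0.55). For each of the 8, all 4 cKO_SOD1 libraries lay below all 4 cWT_SOD1 libraries, where 24.1% of all genes lay wholly below and 25% wholly above. The median log2 fold change of the 9 was -1.34, against -0.0087 over all genes. Without Ripk3, which passed the filter through the cWT_SOD1 group, 7 of 8 were lower with a median of -1.34, and with no filter Ripk3 was at -1.62 (adjusted p = 0.00106).

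The difference between the 2 transgene effects was tested as an interaction, which subtracts the effect in cWT from that in cKO. It passed for 8 of the 9 genes, or 7 of 8 without Ripk3, all negative, where 45.0% of all genes tested passed, 23.2% with a positive and 21.8% with a negative value. The largest was Casp4 (-2.91 on the log2 scale, SE 0.59, adjusted p = 0.000668), followed by Pycard (-1.89, SE 0.29, adjusted p = 6.55e-05). Ripk3 (-1.75), Gsdmd (-1.67), Casp1 (-1.51) and Casp8 (-1.49) lay between those and Nlrp3 (-0.996, adjusted p = 0.0290) and Ripk1 (-0.94, adjusted p = 0.000412). For Mlkl it was -0.36 (adjusted p = 0.663). All these comparisons draw on the same 16 libraries, so their values are not independent of each other. The Ripk3 call (adjusted p = 0.0376) was lost in DESeq2 (adjusted p = 0.0512) and without any of 7 single libraries, at most with adjusted p = 0.169 without cKO replicate 3, the library with the highest Ripk3 level of its group. Those 7 were cWT replicates 1, 3 and 4, cKO replicate 3, cWT_SOD1 replicate 3, and cKO_SOD1 replicates 3 and 4. The Nlrp3 call was lost without cWT replicate 1 or 2, cKO replicate 1 or 2, cKO_SOD1 replicate 1, or cWT_SOD1 replicate 3 (adjusted p from 0.0505 to 0.0728).

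Markers of several cell types moved with these genes. The summed CPM of 6 microglial markers (Cx3cr1, P2ry12, Tmem119, Csf1r, Aif1 and Itgam) was 379 to 413 in cKO_SOD1, 836 to 1142 in cWT_SOD1, 221 to 294 in cKO and 224 to 239 in cWT libraries, and none was at 0 in any group. That sum was 4.35-fold higher in cWT_SOD1 than in cWT cords, with all 6 called higher. It was 1.57-fold higher in cKO_SOD1 than in cKO cords, with 4 of 6 called higher, and 2.54-fold lower in cKO_SOD1 than in cWT_SOD1 cords, with all 6 called lower. The 5 astrocyte markers, Gfap among them, summed to 6208 to 6945 CPM in cKO_SOD1, 14948 to 18237 in cWT_SOD1, 2622 to 3244 in cKO and 2666 to 3101 in cWT libraries. All 5 were called higher in cWT_SOD1 against cWT, 2 of 5 in cKO_SOD1 against cKO, and all 5 lower in cKO_SOD1 against cWT_SOD1. Markers of blood-derived and border cells gave lower sums than those of microglia and astrocytes. The 6 genes of monocytes, neutrophils and border macrophages summed to 12.7 to 13.9 CPM in cKO_SOD1, 17.2 to 35.5 in cWT_SOD1, 8.12 to 14.9 in cKO and 7.44 to 12.2 in cWT libraries. The 4 T cell genes summed to 0.176 to 0.466, 1.78 to 2.85, 0.106 to 0.488 and 0.166 to 0.571 CPM in the same order, with Cd8a at 0 counts in cWT. Among the monocyte, neutrophil and border macrophage genes, 2 of 5 tested were called higher in cWT_SOD1 against cWT and none in cKO_SOD1 against cKO. In cKO_SOD1 against cWT_SOD1, 2 were called lower. Of the T cell genes only Cd4 was tested, and it passed the filter on low counts only through cWT_SOD1. The 4 neuronal markers moved the other way, at 3571 to 3829 CPM in cKO_SOD1, 1609 to 2506 in cWT_SOD1, 4328 to 4474 in cKO and 4246 to 4720 in cWT libraries, and the 6 motor neuron markers summed to 159 to 207, 128 to 178, 357 to 417 and 379 to 498 CPM. The neuronal markers were called lower for 4 of 4 in cWT_SOD1 against cWT and 2 of 4 in cKO_SOD1 against cKO, and the motor neuron markers for 6 of 6 in both. Oligodendrocyte markers summed to 22036 to 25687 CPM in cKO_SOD1, 17985 to 21579 in cWT_SOD1, 22983 to 25187 in cKO and 22252 to 25469 in cWT libraries. Endothelial markers ran from 98.8 to 144 CPM over all libraries, with overlap between all groups, and Schwann cell markers from 31.6 to 147 CPM. Of all genes tested, 66.3% changed in cWT_SOD1 against cWT, 7.28% in cKO_SOD1 against cKO and 58.2% in cKO_SOD1 against cWT_SOD1. The part of the marked cell types in the levels of the 9 genes was not tested.

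The genes that feed or brake necroptosis changed in both directions with the transgene. Of 28 tested, 17 rose and 7 fell in cWT_SOD1 against cWT, 6 rose and none fell in cKO_SOD1 against cKO (3 to 8 called over the other settings), and 17 were lower and 2 higher in cKO_SOD1 than in cWT_SOD1. Over all genes tested, 33.2% rose and 33.1% fell in the first comparison and 4.80% rose and 2.48% fell in the second. In the third, 29.1% went each way. Tnfrsf1a, the tumour necrosis factor receptor that recruits Ripk1, was at 30.6 ± 3.13 CPM in cKO_SOD1, 81.9 ± 11.9 in cWT_SOD1, 16.4 ± 1.90 in cKO and 16 ± 0.933 in cWT cords (SD, n = 4 each). It rose 5.13-fold in cWT_SOD1 (adjusted p = 1.33e-11) and 1.87-fold in cKO_SOD1 (adjusted p = 4.04e-05), each against its own group without the transgene. The second receptor Tnfrsf1b and the lipopolysaccharide receptor Tlr4 rose 5.20-fold and 5.50-fold in cWT_SOD1 against cWT. Zbp1, a nucleic acid sensor that can engage Ripk3 directly, rose 8.34-fold in cWT_SOD1 against cWT and 2.98-fold in cKO_SOD1 against cKO (adjusted p = 0.0346). Tnfaip3, the ubiquitin-editing enzyme A20, which restrains tumour necrosis factor signalling, rose 4.38-fold in cWT_SOD1 against cWT, Cflar, the catalytically inactive partner of Casp8, 2.30-fold, and Fadd, the adaptor of Casp8, 1.55-fold. In cKO_SOD1 against cKO these 3 did not pass, at 1.44, 1.15 and 1.11-fold. The ligand gene Tnf was too scarce to test, with 15 counts summed over the cKO_SOD1 group, 55 in cWT_SOD1, 6 in cKO and 8 in cWT.

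Inflammasome sensors and triggers other than Nlrp3 were mostly higher with the transgene under both genotypes. Of 14 tested, 13 rose in cWT_SOD1 against cWT and 1 fell (Panx1), with a median log2 fold change of 1.73. In cKO_SOD1 against cKO 9 rose and Panx1 fell, a total of 10 that ranged from 4 to 10 over the other settings, and 12 were lower in cKO_SOD1 than in cWT_SOD1. The shares over all genes tested were 33.2% higher and 33.1% lower, 4.80% higher and 2.48% lower, and 29.1% lower, in that order. Naip2, a sensor of bacterial proteins, was at 5.17 ± 0.301 CPM in cKO_SOD1, 21.1 ± 5.94 in cWT_SOD1, 2.29 ± 0.572 in cKO and 2.12 ± 0.286 in cWT cords. It rose 9.94-fold in cWT_SOD1 against cWT (adjusted p = 3.88e-10) and 2.24-fold in cKO_SOD1 against cKO (adjusted p = 0.00184). Naip5 rose 8.97-fold and 2.50-fold in the same comparisons, but Naip2, Naip5 and Naip6 are related copies, and whether reads were shared among them was not examined. Nlrc4, the partner of the Naip proteins, rose 2.01-fold in cWT_SOD1 (adjusted p = 0.0137) and was not called in cKO_SOD1 against cWT_SOD1 (adjusted p = 0.0898). The DNA sensor Aim2 rose 3.11-fold in cWT_SOD1 against cWT and was 2.07-fold lower in cKO_SOD1 than in cWT_SOD1. P2rx7, the ATP-gated channel that triggers Nlrp3, rose 2.32-fold in cWT_SOD1 against cWT and 1.25-fold in cKO_SOD1 against cKO (adjusted p = 0.0225).

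Among pyroptosis effectors and cargo, Casp12, the next gene after Casp4 on chromosome 9 and a caspase found at the endoplasmic reticulum, rose most in cWT_SOD1 against cWT. It was at 9.12 ± 1.01 CPM in cKO_SOD1, 37.7 ± 3.78 in cWT_SOD1, 5.27 ± 0.819 in cKO and 3.99 ± 0.154 in cWT cords. It rose 9.46-fold in cWT_SOD1 against cWT (adjusted p = 1.30e-12) and was 4.13-fold lower in cKO_SOD1 than in cWT_SOD1 (adjusted p = 4.24e-10). Its neighbours Casp1 and Casp4 moved the same way. So did all 9 genes in the first comparison and 8 of the 9 in the second. All genes tested gave shares of 66.3% changed in cWT_SOD1 against cWT, 7.28% in cKO_SOD1 against cKO and 58.2% in cKO_SOD1 against cWT_SOD1. Of the 6 genes tested in this list, 5 rose and 1 fell in cWT_SOD1 against cWT, 2 rose in cKO_SOD1 against cKO (1 to 3 called over the other settings), and 5 were lower and 1 higher in cKO_SOD1 than in cWT_SOD1. The 1 that went the other way was Gsdme, another gasdermin, which was 1.47-fold lower in cWT_SOD1 than in cWT (adjusted p = 2.08e-06) and 1.32-fold higher in cKO_SOD1 than in cWT_SOD1 (adjusted p = 0.000110). Gsdma, also among the 6, was scarce, with 12, 14, 12 and 13 counts in cWT_SOD1 libraries. Like Ripk3, it passed the filter on low counts only through cWT_SOD1, with cKO_SOD1 replicate 3 besides. Its place in the counts that involve cWT_SOD1 is therefore a description. The cargo genes differed from each other. Il1a, an interleukin-1 released on lysis, rose 6.97-fold in cWT_SOD1 and 2.16-fold in cKO_SOD1 against their own groups without the transgene, while Il18 rose 1.22-fold in cWT_SOD1 and was at 0.993-fold in cKO_SOD1 (adjusted p = 0.964). Il1b, the classical substrate of Casp1, was too scarce to test, with 28 counts summed over the cKO_SOD1 group, 59 in cWT_SOD1, 9 in cKO and 3 in cWT.

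The list of genes for interleukin-1 and interleukin-18 reception, antagonists such as Il18bp included, had 5 of 7 tested higher in cWT_SOD1 than in cWT. In the same list, 2 were higher in cKO_SOD1 than in cKO (1 to 3 called over the other settings), and 5 lower in cKO_SOD1 than in cWT_SOD1. The interleukin-18 receptor genes Il18r1 and Il18rap were too scarce to test. Among all genes tested, 33.2% were higher in the first comparison, 4.80% higher in the second and 29.1% lower in the third. The receptor Il1r1 rose 4.77-fold in cWT_SOD1 against cWT and was at 1.12-fold in cKO_SOD1 against cKO (adjusted p = 0.572). Its interaction term was -2.10 (adjusted p = 1.49e-06). The kinase Irak4 downstream of it rose 4.29-fold and the interleukin-18 antagonist Il18bp 3.66-fold in cWT_SOD1 against cWT.

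Of 9 apoptotic caspase and apoptosome genes tested, 6 rose and 1 fell in cWT_SOD1 against cWT, none passed in cKO_SOD1 against cKO (1 had an unadjusted p under 0.05), and 6 were lower and 1 higher in cKO_SOD1 than in cWT_SOD1. Among all genes tested, 66.3% changed in the first comparison, 7.28% in the second and 58.2% in the third. Casp6, a caspase of the executioner class, rose 2.27-fold in cWT_SOD1 against cWT and was 1.78-fold lower in cKO_SOD1 than in cWT_SOD1. Cycs, the cytochrome c gene, was 1.49-fold lower in cWT_SOD1 than in cWT. The ESCRT-III genes, whose products repair membranes pierced by Mlkl or Gsdmd, showed no common direction. Of 13 tested, 5 rose and 5 fell in cWT_SOD1 against cWT, with a median log2 fold change of -0.08, and none passed in cKO_SOD1 against cKO (0 also at an unadjusted p under 0.05). The shares over all genes tested were 33.2% higher and 33.1% lower in cWT_SOD1 against cWT, and 7.28% changed in cKO_SOD1 against cKO. Chmp5 and Chmp1b rose 1.18-fold and 1.27-fold and Tsg101 was 1.19-fold lower in cWT_SOD1 than in cWT. No gene of these 6 lists passed in cKO against cWT. There, 6 of their 77 tested genes had an unadjusted p under 0.05, against 543 of all 15426 genes tested.

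**Figure D4:**
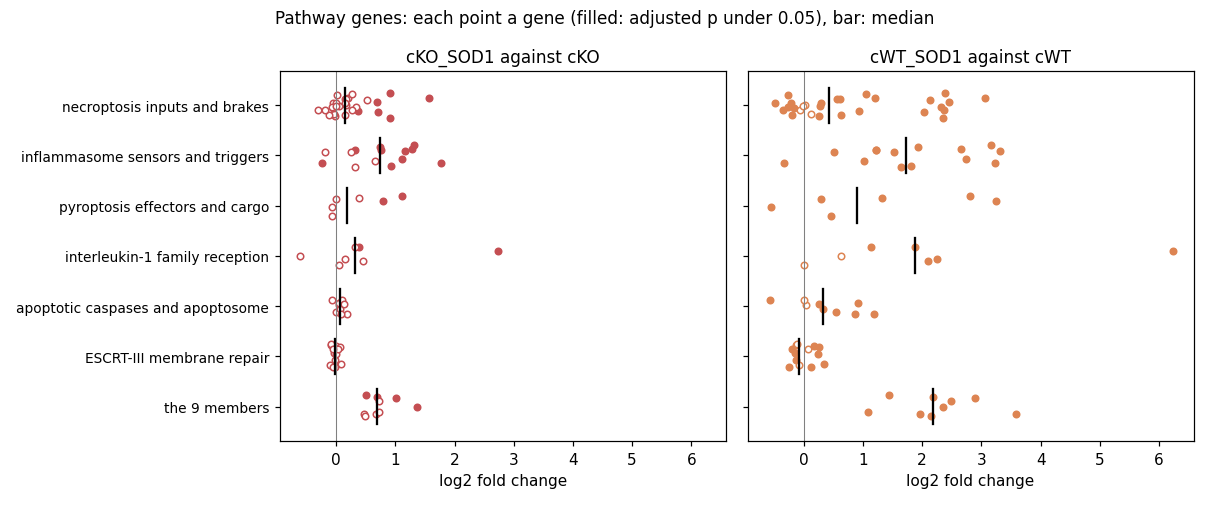
Log2 fold changes of the tested genes of the 9 and of each of the 6 pathway lists, with the left panel for cKO_SOD1 against cKO and the right panel for cWT_SOD1 against cWT, 1 point per gene and a bar at the median. The medians of the 9 genes are 0.69 at left and 2.18 at right, those of the inflammasome sensors 0.75 and 1.73, and those of ESCRT-III -0.02 and -0.08.

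The 9 genes did not all share one pattern over the 16 libraries. Likeness was measured as the root-mean-square distance between log2 CPM values, each gene centred on its own mean. Casp8 and Gsdmd were the closest pair of the 9, at 0.201, followed by Casp1 and Casp8 at 0.250, while Mlkl and Casp4 were farthest apart at 1.21. Sampling error of scarce genes adds to this distance. Among 14362 other genes that averaged 1 CPM or more, one of those nearest to Casp8 was Tgfbr2, a receptor of transforming growth factor beta (0.120), at 44.5 CPM in cKO_SOD1, 115 in cWT_SOD1, 29.5 in cKO and 25.3 in cWT cords. Near to Pycard was the lysosomal gene Ctsc (0.193). Gsdmd was nearest to Srgn (0.158) and Birc3 (0.169), and Casp1 to Adamts1 (0.144) and Il13ra1 (0.163). Ripk1 was nearest to Zfp36l2 and Tead1 (0.120 each). The nearest genes to Nlrp3 (Ptpn18 at 0.315 and Pld4 at 0.321), Ripk3 (Sctr at 0.303 and Mlxipl at 0.350), Casp4 (Iqgap3 at 0.364 and Ch25h at 0.442) and Mlkl (Zfp429 at 0.369 and Fam189a2 at 0.399) were farther off.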

How the data were processed

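The labels' protocols give Trizol and column extraction of RNA, poly-A selection and Illumina TruSeq libraries. The submitters' processing notes list bcl2fastq 1.8.4, TopHat2 2.0.4, Cufflinks 2.0.2 and mm9. Which tool made the counts, and whether it used strand, is not stated in the sources at hand. The authors deposited whole-number counts per gene symbol and FPKM values, which are scaled for transcript length and library size. The counts were analysed in R 4.3.3 with edgeR 4.0.16 (TMM normalisation, filterByExpr, quasi-likelihood F-test, 1 coefficient per group over all 16 libraries). Benjamini-Hochberg adjustment covered all 15426 genes kept, with a threshold of 0.05, and SE is the log2 fold change over the square root of F. CPM use TMM library sizes, and log2 CPM a prior count of 2. Libraries of 1 group differed in pairs by a mean chi-square per gene of 2.79 to 38.9, above sampling noise, so none was counted as a duplicate. The tests were also run on simulated counts in which a small set of genes was raised in cWT_SOD1 alone. In the data many more genes changed, in both directions, so that run does not check the calls under such broad change. Alternatives were RLE size factors, no filter, DESeq2 1.42.0, limma 3.58.1 on log2(FPKM + 0.1) and log2(FPKM + 1), only the libraries compared, sex as a term, a replicate block, and each library left out.

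The 9 genes and all lists were chosen with earlier results of these data known. Beyond the 9 genes, the text names up to 3 called genes of each pathway list with the smallest p in cWT_SOD1 against cWT and up to 3 in cKO_SOD1 against cWT_SOD1, if they averaged 1 CPM or more, then Tnf, Zbp1, Tnfaip3, Aim2, Nlrc4, Il1b, Il18, Casp12, Gsdme, Cflar and Fadd, and the 2 genes of nearest pattern to each of the 9. Atg7 was added as the targeted gene, and Panx1, Naip6, Gsdma, Il18r1 and Il18rap were named after their values were seen. Some genes that this rule or the marker lists would name are not reported here.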

Additional observations from a re-analysis of the deposited data

Results flagged for a closer look

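The response to the transgene differed between the genotypes for 8 of the 9 genes, by the interaction term of the edgeR quasi-likelihood fit (effect in cKO minus effect in cWT, log2 scale). Without Ripk3, which passed the filter on low counts only through cWT_SOD1, 7 of 8 passed. The Ripk3 and Nlrp3 calls were lost under some alternatives. The differences were -2.91 for Casp4, -1.89 for Pycard, -1.75 for Ripk3, -1.67 for Gsdmd, -1.51 for Casp1, -1.49 for Casp8, -0.996 for Nlrp3 and -0.939 for Ripk1. In all 8, the 4 cWT_SOD1 libraries stood above the 12 others, for which the share of all genes was not counted. Of all genes tested, 27.6% had cWT_SOD1 wholly above cWT, and 24.1% had cKO_SOD1 wholly below cWT_SOD1. The differences are the interaction values of the report, and 45.0% of all genes tested passed the same test.

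A single library stood far from the other 3 of its group in 1 of 36 groups of 4 examined, by Dixon's criterion at the 95% level, which chance meets in about 1 of 20 groups. It was cKO replicate 3 for Ripk3, at 0.443 CPM against 0.146 to 0.159 CPM in the other cKO libraries. That is 8 counts against 3 in each of the others, so the value rests on few reads.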

How the results depend on the processing

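The number of the 9 genes called moved little over the alternatives. It was 8 to 9 in cWT_SOD1 against cWT, 3 to 5 in cKO_SOD1 against cKO, 0 in cKO against cWT and 8 in cKO_SOD1 against cWT_SOD1 under every alternative run, and 6 to 8 for the interaction. A fit of only the libraries compared cannot give the interaction, and there Mlkl did not pass the filter in cWT_SOD1 against cWT. In that setting neither Mlkl nor Ripk3 passed the filter in cKO_SOD1 against cKO or in cKO against cWT. Over all genes, calls in cKO against cWT numbered 4, with 18 in DESeq2, 9 in a fit of only the libraries compared, and 2 to 6 with a library left out. Those in cKO_SOD1 against cKO numbered 1123, with 2480 in a fit of only the libraries compared and 685 to 991 with a library left out, the lowest without cKO replicate 2. The cause was not tested. No sign of a fold change of the 9 reversed in the other 4 comparisons. In cKO against cWT, where none of the 9 was called, Mlkl was at 0.12 (log2) and turned to -0.17 on log2(FPKM + 0.1), -0.054 on log2(FPKM + 1), and -0.21 to 0.53 with a library left out. With a library left out, Ripk3 ran from -0.40 to 0.45, Ripk1 from -0.14 to 0.012, Nlrp3 from -0.28 to 0.19 and Pycard from -0.10 to 0.23. Replicate numbers are not stated to pair the animals. Same-numbered libraries of different groups had correlated deviations from -0.253 to 0.312, with 11 of 24 pairs over 0.1, and 7 of 16 libraries matched their own number best. All 11 pairs were of the same sex, and the same-numbered pairs of different sex were all negative. Pairs of different number and the same sex reached similar values, as 0.276 for cKO_SOD1 replicate 3 and cKO replicate 4. The median was 0.0257 for same-numbered pairs and 0.0022 for the others. With the replicate number as a block, 9, 4, 0, 8 and 8 of the 9 genes were called in the 5 comparisons and 10204, 1158, 4, 9018 and 6936 of all genes, so that no count for the 9 changed. Depth limits Ripk3, Mlkl and Casp4 most, since single libraries held as few as 1 to 2 counts of them.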
